A study of Mus musculus with 2 samples.

Results

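Elastic fibre genes were examined here across the cells of a reprogramming experiment in which mouse embryonic fibroblasts (MEF) were turned into induced myogenic progenitor cells (iMPC). The genes were chosen by name: elastin (Eln), the fibrillins Fbn1 and Fbn2, the fibulins Fbln1, Fbln2 and Fbln5, the lysyl oxidases Lox and Loxl1, and the microfibril proteins Mfap2 and Mfap5. All 10 were listed in both count matrices, among 26100 shared genes. The rule uses names and no measured value, but the members were chosen with earlier results of these data known.

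The study sequenced 2 libraries of single cells, 1 for each condition, with a droplet method that counts transcripts at their 3′ ends by unique molecular identifiers (UMIs). The MEF library held fibroblasts kept in MEF media. The iMPC library held cells derived from such fibroblasts with MyoD, a muscle transcription factor, together with the agents that the labels abbreviate F/R/C, and grown on in medium containing F/R/C. Both carried the genotype Tg:Pax7-nGFP/C57BL6;DBA2, in which a nuclear green fluorescent protein follows the satellite cell gene Pax7, and the series describes the iMPC as a stable clone. With 1 library a condition there was no replicate check, and no test between conditions was possible. The intervals given are 95% intervals for counting error only.

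Cells with at most 20% mitochondrial UMIs were kept: 6043 in MEF and, with at least 8036 UMIs each, 9349 in iMPC. Within iMPC, 4 sets of cells were defined by UMI counts of 4 other genes. The Pax7 set (2180 cells) had at least 1 Pax7 UMI and no UMI of Myog, a gene of committed muscle precursors. The Myog set (1724 cells) had at least 5 Myog UMIs and at most 1 of Ckm, the muscle creatine kinase. The Ckm set (1037 cells) had at least 5 Ckm UMIs. The Dcn set (553 cells) had at least 5 UMIs of Dcn, a proteoglycan gene of connective tissue cells. The Dcn set shared 110 cells (19.9% of it) with the Pax7 set and 18 with each of the others, and 4001 iMPC cells belonged to no set.

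Elastic fibres give skin, arteries, lung and muscle connective tissue their recoil. They form when tropoelastin, the product of Eln, is laid down on a scaffold of fibrillin microfibrils, which carry Mfap2 and Mfap5 as associated glycoproteins. Fibulins link elastin to the microfibrils, and lysyl oxidases crosslink it. Fibroblasts and smooth muscle cells are the usual producers.

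Promoter windows from RefSeq (GRCm38.p6; 250 bases before and 50 after a transcription start) were at hand for 5 of the 10 genes: Fbn1, Mfap2, Fbln1, Fbln2 and Fbln5. The stretches shown are 150 bases upstream of the start for 3 genes whose levels went different ways in iMPC: Fbln5, which had the lowest level relative to MEF in the Dcn set, Fbln1, which was higher in the Pax7 set than in MEF, and Mfap2, which lay between them. For Fbln5 and Fbln1 they end at the RefSeq start, and for Mfap2 at the GENCODE start, which lies 6 bases before the RefSeq one. They are read 5′ to 3′ on the gene's strand, and capitals mark GGGCGG on either strand. Fbln5 is at chr12:101819120-101819269 (minus strand), Fbln1 at chr15:85205799-85205948 (plus strand) and Mfap2 at chr4:141010268-141010417 (plus strand).

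Fbln5: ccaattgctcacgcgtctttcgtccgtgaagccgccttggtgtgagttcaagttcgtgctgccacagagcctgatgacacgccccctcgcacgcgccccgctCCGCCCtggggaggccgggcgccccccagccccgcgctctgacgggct
Fbln1: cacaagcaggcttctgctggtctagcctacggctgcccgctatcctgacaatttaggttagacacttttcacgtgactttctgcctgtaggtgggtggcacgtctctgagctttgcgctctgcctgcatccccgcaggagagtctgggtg
Mfap2: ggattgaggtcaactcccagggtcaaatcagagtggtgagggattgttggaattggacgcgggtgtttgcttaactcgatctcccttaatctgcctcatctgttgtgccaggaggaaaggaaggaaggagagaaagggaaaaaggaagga

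The base composition of these stretches differed, with 70% G or C in Fbln5, 56.7% in Fbln1 and 49.3% in Mfap2. Over the whole 300-base windows, GGGCGG, the GC box, was matched 2 times in Fbln5, 2 times in Fbln2, 1 time in Fbn1 and not at all in Fbln1 or Mfap2, against 35.9% of all 32619 windows with a match. CANNTG, the E-box read by MyoD and related factors, was matched 1 or 2 times in each of the 5 windows and in 72.3% of all windows. CATTCC, the site of TEAD factors, was matched in Mfap2 only (14.6% of all windows), and neither TATAAA (13.7%) nor TGANTCA, the AP-1 site (7.85%), was matched in the 5. Both strands were searched and no 2 matches overlapped. The Fbn1 and Fbln2 windows lie within the annotated genes and are not printed. Their RefSeq starts are 1555 and 309 bases past the GENCODE starts. A match is a description of the letters, not of binding.

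Median depth was 18929 UMIs a cell in MEF, 18730 in the Pax7 set, 23858 in the Myog set, 42148 in the Ckm set and 18064 in the Dcn set. Levels are given as CPM, a gene's UMIs per 1000000 UMIs of the set. All 10 fibroblast markers listed had UMIs in MEF. Without Dcn, which drew the Dcn set, the other 9 summed to 6428 CPM in MEF and 5061 in the Dcn set. At least 2-fold lower in the Dcn set were 3 of them: Col1a1, a collagen I chain (2289 CPM in MEF against 509), Col1a2 (2097 against 494) and Postn (158 against 54.5). At least 2-fold higher were also 3: Col3a1 (711 CPM in MEF against 2174), Col6a3 (128 against 991) and Lum (33.9 against 119). Of 8 satellite cell markers 6 reached 10 CPM in a set, and 5 of these were at least 2-fold higher in the Pax7 set than in MEF, among them Pax7, which drew the set, and Myf5 (no UMI in MEF, 70.3 CPM). Vcam1 was lower, at 42.6 against 190.5 CPM, and Calcr (0.25 CPM) and Chrdl2 (0.0227 CPM) were nearly absent from the Pax7 set. Summed myocyte markers ran from 95.98 CPM in MEF to 48349 in the Ckm set, and the Dcn set held 4350. Of its cells, 34 had at least 20 UMIs of Mylpf, a muscle myosin light chain, and held 84.3% of its Mylpf UMIs. A doublet caller marked 24 of these 34 cells (70.6%), against 8.32% of the Dcn set. Summed smooth muscle and pericyte markers stood at 9914 CPM in MEF, nearly all of it Acta2 and Tagln, and between 449 and 872 in the iMPC sets. Endothelial markers summed to at most 1.15 CPM in any set and immune markers to 3.202. The next 5 sums each rested mainly on 1 gene. Tendon markers reached 26.1 in the Ckm set (Scx 25.9) and epithelial markers 14.6 in MEF (Krt18 14.2). In the Dcn set adipocyte markers reached 20.5 (Fabp4 19.2), chondrocyte markers 78.5 (Sox9 78.3) and glial markers 12.98 (S100b 11.4). Sox9 was also at 68.8 CPM in the Pax7 set. Kept cells of the 2 libraries shared 16 barcodes.

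Together the 10 genes made up 1962 CPM in MEF, 378 in the Pax7 set, 125 in the Myog set, 53.5 in the Ckm set and 664 in the Dcn set. The genes did not move alike. Fbln5, Fbln2, Lox, Eln, Mfap5 and Fbn2 were at least 2-fold lower in every set than in MEF, while Fbn1 was higher in the Dcn set and Fbln1 was higher in the Pax7 set.

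**Figure D1:**
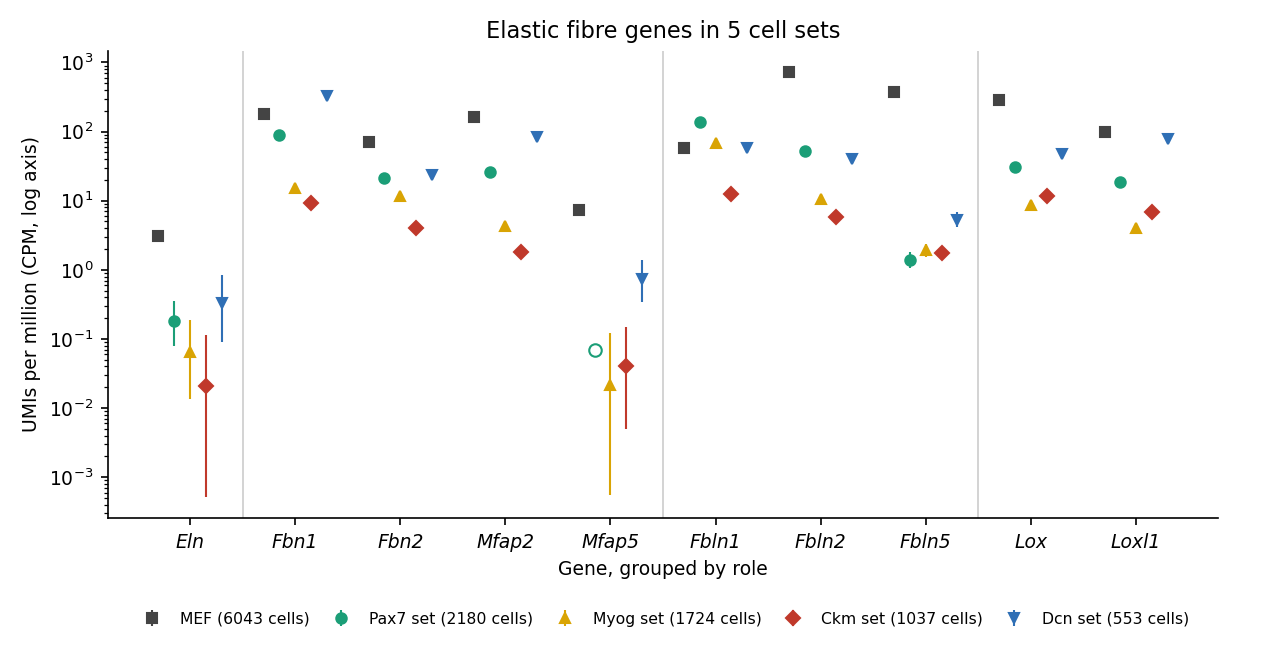
Level of each elastic fibre gene (CPM, log axis) in MEF cells and in the 4 sets of iMPC cells, with 95% counting intervals; the open circle is the level that 3 UMIs would give, for Mfap5 with no UMI in the Pax7 set. Fbn1 is highest in the Dcn set and Fbln1 in the Pax7 set, and the other 8 genes are highest in MEF.

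Eln (chr5:134702593-134747323, GRCm38, minus strand) encodes tropoelastin, the elastic core of the fibre. It was sparse everywhere, at 3.13 CPM in MEF (2.81 to 3.46; 369 UMIs), 0.329 in the Dcn set (4 UMIs), 0.182 in the Pax7 set (8 UMIs), 0.0649 in the Myog set (3 UMIs) and 0.0206 in the Ckm set (1 UMI). MEF stood above every iMPC set. Each step between neighbouring iMPC sets had an interval that included 0, so neighbours could not be ordered. The Ckm set was below the Pax7 set by a log2 ratio of -3.14 (-8.62 to -0.25), which rests on 1 and 8 UMIs. The log2 ratio of the Dcn set to MEF was -3.25 (-5.13 to -1.88). At equal depth a UMI of Eln was seen in 1.42% of MEF cells (82 of 5759), and single MEF cells held up to 13 UMIs before thinning.

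Fbn1 (chr2:125300594-125507993, minus strand) encodes fibrillin-1, the main microfibril protein. Its level was 182 CPM in MEF, 90.2 in the Pax7 set, 15.0 in the Myog set, 9.27 in the Ckm set and 328 in the Dcn set. No 2 of these intervals overlapped, and the Dcn set stood highest. The Dcn set was 1.81-fold above MEF, a log2 ratio of 0.85 (0.80 to 0.90), and the Pax7 set was lower than MEF by a log2 ratio of -1.01 (-1.06 to -0.96), at the edge of 2-fold. The largest step in its order lay between the Pax7 and Myog sets, where the Myog set was lower by a log2 ratio of -2.59 (-2.71 to -2.47). The log2 ratio of the Ckm set to MEF was -4.29, and -5.56 without the cells marked as doublets.

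Fbn2, on chromosome 18, encodes fibrillin-2, the fibrillin that prevails in embryonic tissue. It stood at 71.0 CPM in MEF, 21.5 in the Pax7 set, 11.7 in the Myog set, 3.99 in the Ckm set and 23.5 in the Dcn set. The Dcn and Pax7 sets did not differ beyond counting error (log2 ratio 0.13, -0.07 to 0.32), so that the fibrillins parted in the Dcn set. Fbn1 there was 1.81-fold above MEF while Fbn2 was 3.02-fold below it.

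Mfap2 (chr4:141010418-141015984, plus strand) encodes a small glycoprotein bound to fibrillin. It was at 163 CPM in MEF, 26.0 in the Pax7 set, 4.33 in the Myog set, 1.79 in the Ckm set and 83.1 in the Dcn set. Every step in this order was larger than its counting error. The Dcn set lay just inside 2-fold of MEF, with a log2 ratio of -0.98 (-1.07 to -0.88), and the Ckm set was 91.5-fold lower than MEF. Without the cells marked as doublets in both libraries, which were 8.68% of the Ckm set, it was 197-fold lower.

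Mfap5 (chr6:122505845-122529290, plus strand) encodes the related glycoprotein of microfibrils. It was at 7.29 CPM in MEF (861 UMIs), 0.739 in the Dcn set (9 UMIs), 0.0411 in the Ckm set (2 UMIs) and 0.0217 in the Myog set (1 UMI), and the Pax7 set had no UMI. With 3 UMIs in place of 0, the Pax7 set would be 107-fold lower than MEF, and the upper end of the interval of its log2 ratio is -6.44. The Dcn set stood above the Ckm set by a log2 ratio of 4.17 (1.90 to 7.42), and 5 of its 9 UMIs came from 1 cell.

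Fbln1 (chr15:85205949-85286535, plus strand) encodes a fibulin of basement membranes and elastic fibres. Its level was 56.9 CPM in MEF, 137 in the Pax7 set, 68.2 in the Myog set, 12.4 in the Ckm set and 57.9 in the Dcn set. The Pax7 set stood highest, 2.40-fold above MEF (log2 ratio 1.26, 1.22 to 1.32), and Fbln1 was the only one of the 10 genes counted as at least 2-fold higher in a set than in MEF. Fbn1 in the Dcn set also passed 2-fold in 3 alternatives. Its log2 ratio was 1.005 without cells marked as doublets, 1.03 with at least 20 Dcn UMIs and 1.05 with the sets drawn from counts thinned to 8000 UMIs. For Fbln1 the Dcn set and MEF did not differ beyond counting error (log2 ratio 0.03, -0.09 to 0.14). The Myog set stood at a log2 ratio of 0.26 to MEF (0.20 to 0.32), a sign that turned to -0.32 when the sets were drawn from counts thinned to 8000 UMIs. From the Pax7 to the Ckm set the level was 11.03-fold lower.

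Fbln2 (chr6:91212455-91272540, plus strand) encodes a fibulin found in vessel walls, skin and developing cartilage. Its level was 722 CPM in MEF, 52.3 in the Pax7 set, 10.7 in the Myog set, 5.75 in the Ckm set and 39.6 in the Dcn set. No set of iMPC came near MEF, the Pax7 set lying 13.8-fold below it. Here the Dcn set was below the Pax7 set, by a log2 ratio of -0.40 (-0.55 to -0.26).

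Fbln5 (chr12:101746565-101819055, minus strand) encodes the fibulin that brings tropoelastin and lysyl oxidases onto microfibrils, and its GC-rich promoter stretch is the first of those printed. It was at 378 CPM in MEF (44582 UMIs), 1.39 in the Pax7 set (61 UMIs), 1.93 in the Myog set (89 UMIs), 1.75 in the Ckm set (85 UMIs) and 5.34 in the Dcn set (65 UMIs). MEF was apart from all iMPC sets, and the 3 muscle sets did not differ beyond counting error. The log2 ratio to MEF was -8.09 in the Pax7 set (-8.48 to -7.73), a level 273-fold lower, and -6.14 in the Dcn set (-6.52 to -5.79). In the Dcn set this was the lowest ratio of the 10 genes.

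Lox, on chromosome 18, encodes lysyl oxidase, which starts the crosslinking of elastin and collagen. It was at 282 CPM in MEF, 31.2 in the Pax7 set, 8.66 in the Myog set, 11.6 in the Ckm set and 48.0 in the Dcn set. Its order differed from that of the scaffold genes at the lower end, where the Ckm set was above the Myog set by a log2 ratio of 0.43 (0.24 to 0.61).

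Loxl1 (chr9:58287738-58313186, minus strand) encodes the lysyl oxidase bound to elastic fibres through Fbln5. It was at 96.9 CPM in MEF, 18.8 in the Pax7 set, 4.004 in the Myog set, 6.82 in the Ckm set and 77.5 in the Dcn set. Like Lox it was higher in the Ckm set than in the Myog set, by a log2 ratio of 0.77 (0.51 to 1.04). The Dcn set was close to MEF, with a log2 ratio of -0.32 (-0.42 to -0.23), where Lox was at -2.55 (-2.67 to -2.44).

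**Figure D2:**
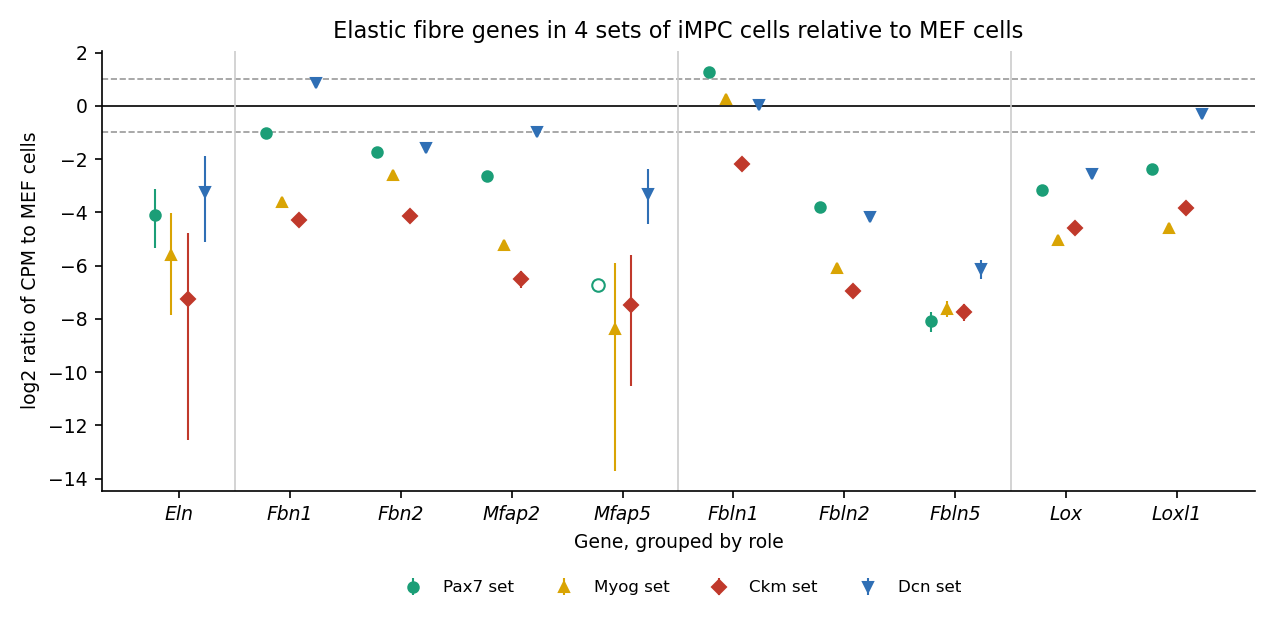
Log2 ratio of each gene's level in the 4 sets of iMPC cells to its level in MEF cells, with 95% counting intervals. Dashed lines mark 2-fold, and the open circle is the value that 3 UMIs would give. In the Dcn set Fbn1, Fbln1, Loxl1 and Mfap2 lie inside the dashed lines while Fbln5 is at -6.14 and Fbln2 at -4.19.

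Counted at 2-fold, 6 of the 10 genes were lower in the Dcn set than in MEF, none was higher and 4 lay within 2-fold, with Fbn1 counted as higher in the 3 alternatives given above. The median log2 ratio was -2.08. Of the 7820 genes with a mean of at least 10 CPM in this comparison, 11.6% were at least 2-fold lower, 11.1% at least 2-fold higher and the median was -0.10. Only 8 of the 10 genes reach that mean, Eln and Mfap5 being below it. In the Pax7 set 9 genes were at least 2-fold lower than in MEF and 1, Fbln1, was higher, with a median of -2.92, against 17.5% of genes lower, 13.3% higher and a median of -0.08. In the Myog set 9 were lower (background 24.8%) and in the Ckm set all 10 (background 32.3%), with medians of -5.13 and -5.56 against -0.17 and -0.45 over all genes. Scaling to the median gene ratio in place of the total raised every log2 ratio of the Ckm set to MEF by 0.49, so that among genes past 2-fold the lower ones made up 50.7% in place of 70.6%. For the Pax7 set against MEF that share was 56.9%, and 45.4% when mitochondrial and ribosomal protein genes were left out of the total. These 4 comparisons share the MEF cells, so the values stand side by side and are not independent. Of the 9 fibroblast markers other than Dcn, 3 were at least 2-fold lower and 3 at least 2-fold higher in the Dcn set than in MEF. Of 7 smooth muscle and pericyte markers, 5 were at least 2-fold lower there and 1 lay within 2-fold. The other 1, Rgs5, was higher, at 54.3 against 0.720 CPM. No marker of these 2 lists was at 0 in MEF or in the Dcn set, and their part in the result was not tested.

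Within iMPC, 5 genes were at least 2-fold higher in the Dcn set than in the Pax7 set (Fbn1, Fbln5, Loxl1, Mfap2 and Mfap5), 1 was lower (Fbln1) and 4 lay within 2-fold. The median log2 ratio was 1.27, and 9.56% of all genes tested were at least 2-fold higher and 6.25% lower. Those genes have a mean of at least 10 CPM, which 7 of the 10 reach in comparisons within iMPC. Fbln5 and Mfap5, among the 5 called higher, do not, nor does Eln. From the Pax7 set to the Myog set 7 of the 9 genes with a ratio were at least 2-fold lower (background 9.94%, median -1.85), Fbln1 among them at -1.003 (-1.066 to -0.94). Eln was also among the 7, at -1.485 (-4.03 to 0.57), an interval that included 0. Its ratio rests on 3 UMIs in the Myog set and 8 in the Pax7 set, and was -0.76 with the sets drawn from counts thinned to 8000 UMIs. From the Pax7 set to the Ckm set 8 of 9 were lower (background 26.9%, median -3.14). Fbln5 was the exception in the Ckm set, at 0.33 (-0.16 to 0.83), and Mfap5 had too few UMIs for a ratio. The lower genes made up 69.4% of all genes past 2-fold here and 45.5% when scaled to the median gene ratio, under which 6 of the 9 were lower. From the Pax7 to the Myog set those shares were 61.8% and 48.6%.

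Detection was compared, as the percent of cells with at least 1 UMI, after each cell had been thinned to 5000 UMIs, which left out 284 shallow MEF cells and no iMPC cell. Fbln2 was then seen in 88.8% of MEF cells (87.9 to 89.6) and in 15.7% of the Dcn set. Fbln5 was seen in 71.0% of MEF cells, 2.17% of the Dcn set (1.13 to 3.76), 0.734% of the Pax7 set, 0.928% of the Myog set and 0.964% of the Ckm set. Fbn1 went the other way, from 51.3% of MEF cells to 71.6% of the Dcn set (67.7 to 75.3). Fbln1 was seen in 46.1% of the Pax7 set and in 24.1% of MEF cells. The shares of Lox were 58.0% in MEF, 20.3% in the Dcn set, 15.2% in the Pax7 set, 3.25% in the Myog set and 6.27% in the Ckm set.

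Without thinning the shares rise with depth: Fbln5 was seen in 88.1% of MEF cells and 7.04% of the Ckm set, Fbn1 in 81.1% of MEF cells and 92.8% of the Dcn set, and Fbln1 in 82.8% of the Pax7 set. Free RNA in the droplets sets a floor to such shares. Taking free RNA as 2.06% of a cell's UMIs with the make-up of iMPC barcodes of 1 to 100 UMIs, 0.308% of thinned cells would hold a Fbln5 UMI, and 0.0345% with the make-up of barcodes of 200 to 600 UMIs. The Fbln5 shares in the 3 muscle sets were above both values. For Mfap2 in the Ckm set, at 0.579% (0.213 to 1.26), the interval held the expected share of 0.266%.

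**Figure D3:**
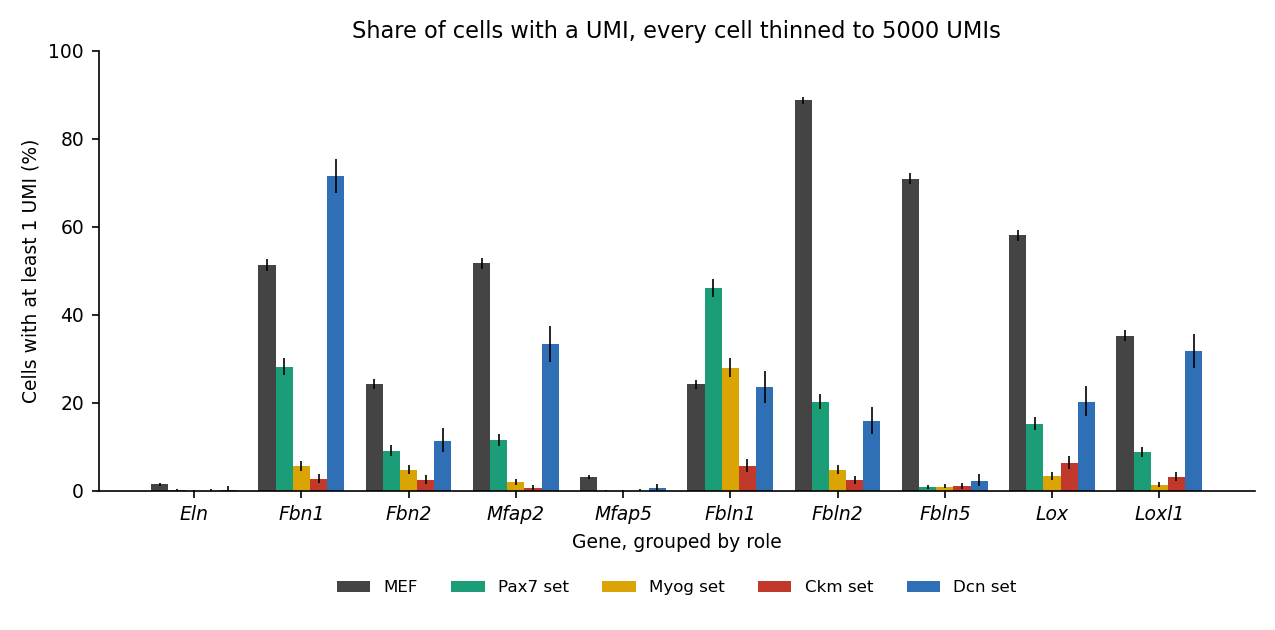
Percent of cells with at least 1 UMI of each gene after every cell was thinned to 5000 UMIs, in MEF cells and the 4 sets of iMPC cells, with exact 95% binomial intervals. Fbln5 reaches 71.0% of MEF cells and at most 2.17% of a set of iMPC cells, while Fbn1 reaches 71.6% of the Dcn set.

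Cells of the sets also differed in how many of the 10 genes they held at once. At 5000 UMIs a cell, the median was 4 genes in MEF, 2 in the Dcn set, 1 in the Pax7 set and 0 in the Myog and Ckm sets. At least 5 of the 10 were seen in 41.3% of MEF cells, 2.17% of the Dcn set and 0.826% of the Pax7 set. No cell of any set held all 10. From cell to cell the members varied little together: the largest correlation of thinned counts over pairs of genes was 0.234 in MEF, between Fbln5 and Lox, and such weak values in sparse counts are given as a description only.

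Within MEF the genes fell into groups by the level of Acta2, the smooth muscle actin of contractile fibroblasts. The 25% of thinned cells with most Acta2 (1448 cells, at least 43 UMIs each) were set against the 25% with least (1458 cells, at most 3). Fbn2 was at 103 CPM against 22.5, a log2 ratio of 2.20 (1.95 to 2.45). Fbln5 was at 505 against 217 CPM (1.22, 1.13 to 1.30) and Lox at 332 against 147 (1.17, 1.07 to 1.28). These 3 were the members at least 2-fold higher, among 4.12% of all genes tested. Eln was lower at 1.24 against 3.84 CPM (9 and 28 UMIs; -1.63, -2.90 to -0.50), where 4.10% of genes were at least 2-fold lower. The other 6 lay within 2-fold, with Fbln1 at -0.63, Fbln2 at -0.44, Mfap2 at -0.38 and Fbn1 at -0.21.

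The 3 genes that were higher in Acta2-rich fibroblasts, Fbn2, Fbln5 and Lox, were all at least 2-fold lower in the Dcn set than in MEF, where Acta2 itself was at 506 CPM against 6108. The other 3 genes lower in the Dcn set did not share that pattern. Fbln2 (-4.19 in the Dcn set) and Eln (-3.25) were lower in Acta2-rich cells, and Mfap5 (-3.30) did not differ beyond counting error between them (0.29, -0.37 to 0.96). The cell cycle gene Mki67 and Dcn also moved with Acta2, Mki67 at 21.8 against 2.06 CPM and Dcn at 133 against 440, and their part in the differences was not tested. The MEF cells with an Mki67 UMI (300) held more Fbln1 than those without (109 against 63.2 CPM; 0.79, 0.55 to 1.02) and less Mfap2 (121 against 180; -0.58, -0.80 to -0.36).

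Within the Pax7 set, the 705 cells with an Mki67 UMI at equal depth held less of 3 genes by at least 2-fold than the 1475 without, where 2.81% of all genes tested were so. Loxl1 was at 9.08 against 27.5 CPM (-1.60, -2.19 to -1.06), Mfap2 at 12.5 against 33.0 (-1.40, -1.90 to -0.93) and Fbn1 at 51.6 against 115 (-1.16, -1.40 to -0.93). Lox was at -0.94 (-1.31 to -0.58), while Fbln1 was slightly higher at 0.23 (0.07 to 0.38). Dcn differed in the same direction as the first 3, at 13.3 against 86.0 CPM. Pax7 was at 124 against 125 CPM, but it drew the set, so its level there is no independent measure. Median depth before thinning was 22328 UMIs in the cells with an Mki67 UMI and 17264 in those without.

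**Figure D4:**
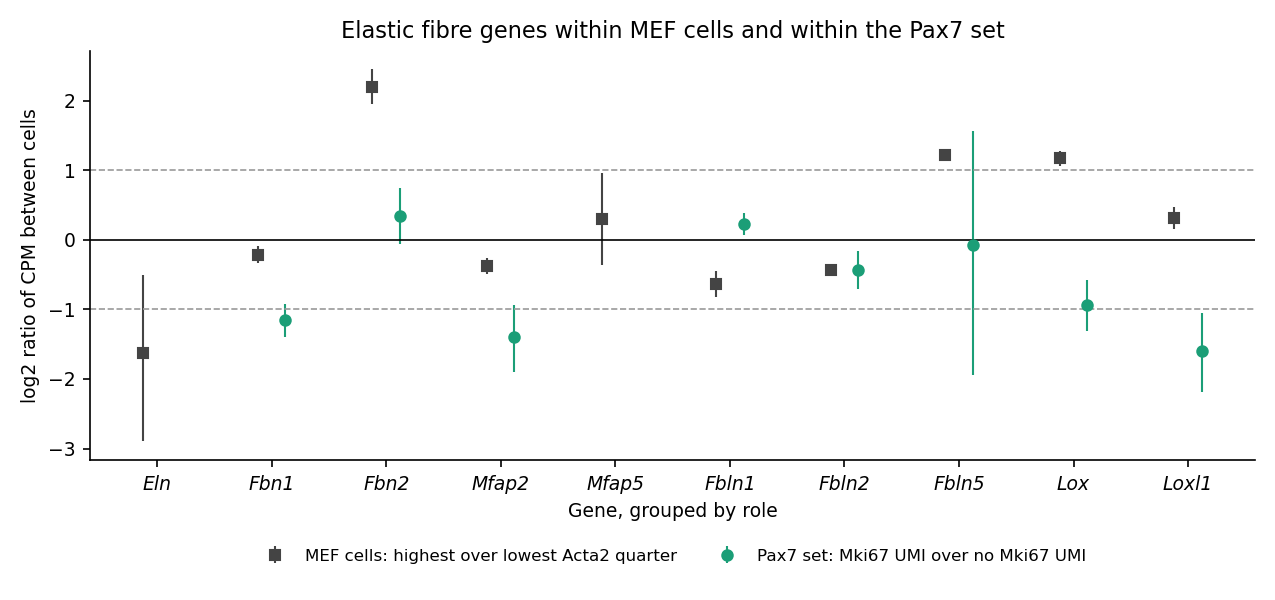
Log2 ratio of each gene's level between cells of the same library, with 95% counting intervals: the 25% of MEF cells with most over the 25% with least Acta2 (squares) and Pax7 set cells with over without an Mki67 UMI (circles); genes without a circle or square had too few UMIs. Fbn2, Fbln5 and Lox pass 2-fold upwards with Acta2, and Loxl1, Mfap2 and Fbn1 pass it downwards with Mki67.

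Along the Dcn count of iMPC cells the genes parted again. Fbn1 was at 40.4 CPM in the 8244 cells with no Dcn UMI, 139 at 1 or 2 UMIs, 232 at 3 or 4, 290 at 5 or 6 and 457 at 50 or more. Mfap2 went from 11.9 to 112 CPM over the same range. Loxl1 was at 9.79 CPM with no Dcn UMI and 30.8 at 1 or 2, and lay between 54.1 and 93.1 with no steady order from 3 UMIs on. Fbn1 was at 261 CPM at 7 to 9 UMIs, where its interval overlapped that at 5 or 6. Fbln1 showed no such gain, at 87.8 CPM with no Dcn UMI and 55.7 at 50 or more. Fbln5 was at 1.71 and 9.72 CPM at these ends, so that the cells richest in Dcn were still far below the 378 CPM of MEF.

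Cells just outside the Dcn set, with 3 or 4 UMIs (118 cells), were near those just inside, with 5 or 6 (63 cells): Loxl1 was at 73.4 and 60.8 CPM, Mfap2 at 58.0 and 67.3, Lox at 48.95 and 45.6, and Fbln1 at 69.3 and 58.6. The counting intervals overlapped for each of these 4. They did not for Fbn1 or for Fbln2, which was at 62.1 CPM outside and 36.9 inside.

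**Figure D5:**
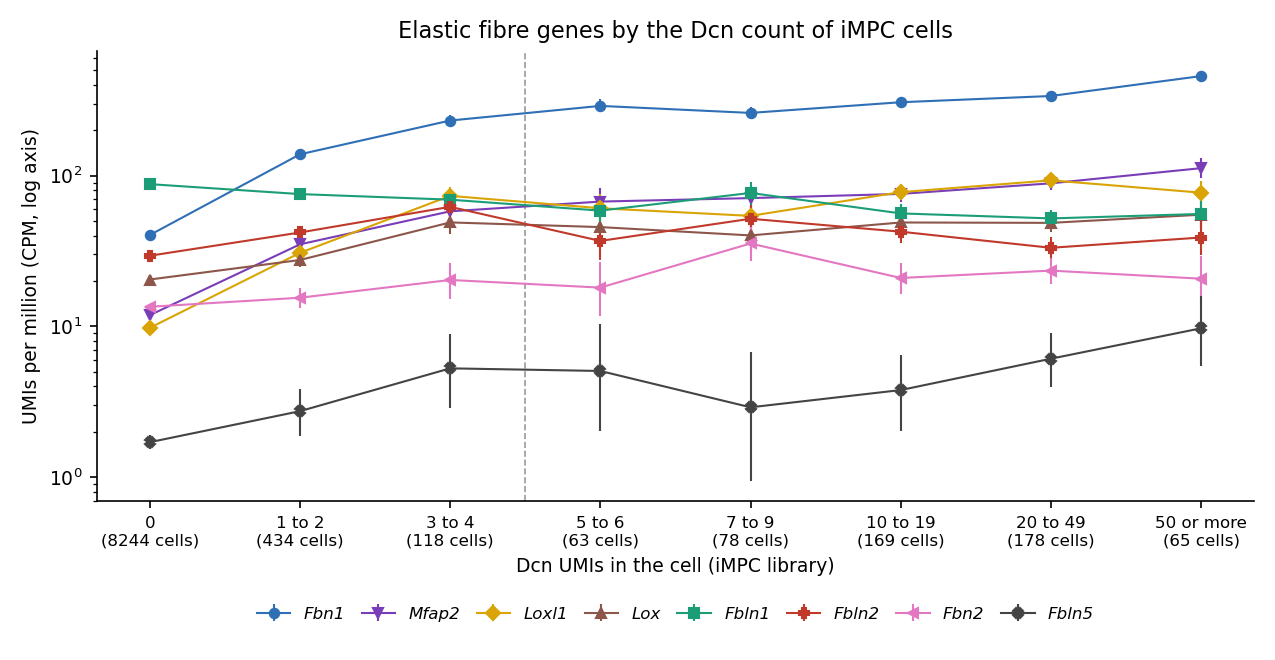
Level of 8 elastic fibre genes (CPM, log axis) in iMPC cells grouped by their Dcn UMI count, with the number of cells under each group and 95% counting intervals; the dashed line is the lower edge of the Dcn set. Fbn1 (40.4 to 457 CPM), Mfap2 and Loxl1 are higher at 50 or more Dcn UMIs than at none, Loxl1 without a steady order from 3 UMIs on, and Fbln1 is lower.

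The 110 cells in both the Dcn and the Pax7 set were nearer to the other Dcn set cells than to the other Pax7 set cells in Fbn1, Loxl1, Mfap2, Lox and Fbln5. Fbn1 was at 352 CPM in them, 322 in the other 443 Dcn set cells and 75.9 in the other 2070 Pax7 set cells. Loxl1 was at 78.7, 77.3 and 15.5 CPM in the same order, and Mfap2 at 84.0, 82.9 and 22.8. For Loxl1 and Mfap2 the first 2 groups did not differ beyond counting error, and for Fbn1 they did (0.13, 0.01 to 0.24). Fbln1 lay between, at 82.2 CPM against 52.3 and 140. A doublet caller marked 2.73% of these 110 cells and 8.32% of the Dcn set.

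Against only the 2179 MEF cells that themselves had at least 5 Dcn UMIs, the log2 ratios of the Dcn set were 0.64 for Fbn1 (0.59 to 0.70), -0.21 for Loxl1, -1.19 for Mfap2, -1.65 for Fbn2, -2.57 for Lox, -2.97 for Mfap5, -4.30 for Fbln2 and -6.10 for Fbln5. Eln was at -2.31 (-4.22 to -0.90) in place of -3.25, and Fbln1 was below MEF at -0.12 (-0.243 to -0.00361) in place of level with it. With this control Mfap2 also passed 2-fold, so that 7 of the 10 genes were lower.

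Other genes that build or cut elastic fibres were counted from 4 lists, over the members with at least 10 CPM in a set. Among 25 genes associated with elastic fibres and microfibrils, 17 reached that level. Of these, 8 were at least 2-fold lower in the Dcn set than in MEF and 1 higher, with a median log2 ratio of -0.86. Of all genes 11.6% and 11.1% were so, and the same holds for the lists that follow. The filters differ, since those shares cover genes with a mean of at least 10 CPM over the Dcn set and MEF. A listed gene needed 10 CPM in any 1 set. Tll1 and Itgb6, counted in later lists, do not reach that mean. The higher one of the 17 was Emilin2, an elastin microfibril interface protein, at 72.5 CPM against 6.34 (log2 ratio 3.52). Vcan, the proteoglycan versican, was at 325 against 227 CPM (0.52) and Mfap3 at 22.9 against 14.9 (0.63). Mfap4, a microfibril protein that binds elastin and lysyl oxidase, was at 32.4 CPM in MEF and had no UMI in the Dcn set. Its log2 ratio would be -7.04 with 3 UMIs, and the upper end of its interval is -6.74. Ltbp1, which ties latent TGF-beta to microfibrils, was at 26.4 against 105 CPM (-1.99), and Adamts10, a protease-like protein of microfibrils, at 10.0 against 29.0 (-1.53).

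Of 8 genes that mature lysyl oxidases or supply their copper, 7 reached 10 CPM in a set, with 4 lower and 1 higher (median -1.11). Atp7a, the copper pump that loads the enzymes in the secretory pathway, was higher at 22.4 against 7.39 CPM (1.60), and the copper importer Slc31a1 was within 2-fold (0.38). Tll1, a protease that can release the active enzyme, was at 1.15 against 18.4 CPM, Postn, a matrix protein that helps that step, at 54.5 against 158 (-1.53), and Pcolce, a procollagen proteinase enhancer, at 192 against 506 (-1.40).

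Of 11 listed proteases able to cut elastin or microfibrils, 6 reached 10 CPM, with 4 higher and 1 lower in the Dcn set than in MEF (median 1.60) and Mmp14 within 2-fold. Mmp9 was at 68.3 against 0.644 CPM (6.73), Mmp3 at 220 against 43.7 (2.33) and Mmp2 at 353 against 78.7 (2.16). The lower one was Ctsk, cathepsin K, at 55.1 against 136 CPM (-1.31). In the Pax7 set 3 of the 6 were lower than in MEF (17.5% of all genes) and 1, Mmp9, was higher at 23.2 CPM (13.3% of all genes).

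Of 10 TGF-beta ligands and integrins that bind latent TGF-beta or microfibrils, 9 reached 10 CPM, with 2 lower and 2 higher (median -0.24). Tgfb2 was at 102 CPM in the Dcn set against 10.3 in MEF (3.31), and at 133 in the Pax7 set. Itgb6 was at 5.59 CPM against 0.00847 (1 UMI in MEF; 9.37, 6.84 to 14.69), and at 46.0 in the Ckm set. Itgb3 was within 2-fold at 0.46, as was Itga5, a fibronectin receptor subunit, at -0.56. The lower 2 were Itgb5 (29.9 against 145 CPM; -2.28) and Itgav (53.4 against 151; -1.495).

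Among 7121 genes with at least 20 CPM in a set, those whose profile over the 5 sets lay nearest to each of 4 members were found by the Euclidean distance of centred log2(CPM + 1) profiles. For Fbn1 these were Tpbg (distance 0.17; 109 CPM in MEF and 197 in the Dcn set), Oaf (0.22) and Fam129a (0.38). For Fbln5 they were Aspn (0.67; 114 CPM in MEF and 0.904 in the Dcn set), Gm2115 (0.82) and Lrrc15 (0.85). For Lox they were Kif26b (0.42), H2-T22 (0.43) and Ccdc80 (0.50). For Eln, whose own profile rests on few UMIs, they were Cpped1, Lrrc8d and Qpctl (0.19 each). Among the 10 genes, Eln and Mfap5 lay closest to each other (0.99), then Fbn1 and Mfap2 (1.501), and Fbln1 and Fbln5 farthest apart (6.56). Eln and Mfap5 were under 1 CPM in every iMPC set, where the 1 added before the log flattens a profile. This limit applies to the genes nearest to Eln as well.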

How the data were processed

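Both matrices hold counts of UMIs per gene and barcode, as deposited by the authors, listing 6794880 barcodes for iMPC (9540 with at least 8036 UMIs) and 6113 for MEF. How the MEF barcodes were selected is not given in the sources used here. Per the file headers the matrices come from Cell Ranger. The submitters' processing notes name Cell Ranger 4.0, Seurat 3.2.3 and the build GRCm38.p6. Depth was 118069653 UMIs in kept MEF cells and 232728796 in kept iMPC cells.

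UMIs were summed over the cells of a set and scaled to CPM. Intervals (95%) are exact Poisson for a level, exact conditional for a ratio and exact Clopper-Pearson for a share. A count of 0 was set to 3 UMIs in a ratio, and no ratio was formed where both counts were at most 3. Doublets were not removed, except in an alternative with Scrublet, which left out marked cells of both libraries. In iMPC the caller's own threshold marked 406 cells. For MEF a fallback was used in its place, which marked the 4.8% of cells with the highest scores (290 cells). Ratio and thinning code was tested on simulated data. Background shares cover genes with a mean of at least 10 CPM over the 2 sets compared. Gene positions are from GENCODE M21 (GRCm38). The software was Python 3.11.15 with scanpy 1.11.5 (Scrublet), scipy 1.17.1 (intervals), matplotlib 3.10.9, pandas 2.3.3 and numpy 2.4.6.

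All 10 members are named. Of each pathway list (associated genes, lysyl oxidase maturation, proteases, TGF-beta and integrins) up to 3 genes with the largest ratio in each direction between the Dcn set and MEF are named, and for Eln, Fbn1, Fbln5 and Lox the 3 genes of most alike pattern. The members and lists were chosen with earlier results of these data known. Alternatives covered doublets, cell limits, scaling, summing, the drawing of the sets, free RNA, low counts and the fold.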

Additional observations from a re-analysis of the deposited data

Results flagged for a closer look

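The iMPC matrix also lists barcodes too small to be cells, which above serve only to estimate free RNA. In its 2636580 barcodes of 1 to 100 UMIs (8761056 UMIs in all) 4 elastic fibre genes stood at least 2-fold above their level in iMPC cells. Fbln5 was at 29.9 CPM there (26.4 to 33.8; 262 UMIs), against 1.99 in iMPC cells and 378 in MEF cells. This is 15.0-fold over the iMPC cells, rank 2 among the 12025 genes with at least 1 CPM in iMPC cells. Fbln2 was at 107.0 CPM against 31.0, Mfap5 at 1.37 (12 UMIs) against 0.181, and Eln at 0.685 (6 UMIs) against 0.120. The other 6 lay within 2-fold of the cells, from 0.82-fold for Fbln1 to 1.49-fold for Mfap2. In barcodes of 200 to 600 UMIs Fbln5 was at 3.34 CPM and Fbln2 at 15.8. Among the 10 highest ranks were also Thbs1 (203 against 14.2 CPM), Cxcl12 (15.5 against 1.42), Cnn1 (25.6 against 2.46) and Tagln (689 against 97.9), at 1883, 180, 146 and 3601 CPM in MEF cells, and Pnmt, with no UMI in MEF cells.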

How the results depend on the processing

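Of 103 counts of members recomputed under alternatives, 101 stayed within 1.5 times the reported count. Of 855 log2 ratios, 664 stayed within their counting interval, 52 moved by over 1.5 times (19 of them with the sets drawn from counts thinned to 8000 UMIs) and 23 changed their side of 2-fold. Of 200 shares of cells, 36 stayed within theirs and 164 did not. The share alternatives changed the depth or the UMIs needed, which by itself changes a share, so this count does not measure stability. The share of Fbn1 stayed highest in the Dcn set and that of Fbln1 in the Pax7 set under each. Loxl1 was highest in the Dcn set in place of MEF at 2000 UMIs (17.7% against 17.4%) and without thinning (70.7% against 70.1%). With 4-fold in place of 2-fold, 2 genes in place of 5 were higher in the Dcn set than in the Pax7 set, and 4 in place of 7 lower in the Myog set than in the Pax7 set. The sign turned in 6 ratios. Fbln1 between the Myog set and MEF, with an interval above 0, was at -0.32 with the thinned rule, and the cause was not tested. The other 5 had intervals that included 0: Fbln1 between the Dcn set and MEF, at -0.13 to -0.08 under 4 alternatives, and Fbln5 between the Ckm and Pax7 sets, at -0.16 with the thinned rule. Within iMPC, Eln was higher by at least 2-fold in the Dcn than in the Pax7 set under 6 alternatives, Lox and Loxl1 were within 2-fold between the Ckm and Pax7 sets when scaled to the median gene ratio, and Fbln1 was within 2-fold between the Myog and Pax7 sets under 3. Fbn1 between the Pax7 set and MEF ranged over both sides of 2-fold, from -0.82 with mitochondrial and ribosomal protein genes left out of the total to -1.26 with cells of 1 set only. The median log2 ratio of the members ranged from -2.09 to -1.29 for the Dcn set over MEF, -3.03 to -2.51 for the Pax7 set over MEF, -5.44 to -4.81 for the Myog set over MEF and -5.92 to -4.45 for the Ckm set over MEF. Without the filter on the mean CPM, 25% of genes in place of 9.56% were at least 2-fold higher in the Dcn than in the Pax7 set, and 20.5% in place of 9.94% lower in the Myog than in the Pax7 set. Leaving out Dcn set cells with at least 20 Mylpf UMIs, an alternative chosen after seeing the data, gave 6 genes lower than in MEF and 6 higher than in the Pax7 set. Leaving out the shared barcodes, also chosen after seeing the data, gave 6 and 5. The alternatives for the Myog against the Pax7 set were added after seeing the data too. With 1 library a condition, culture, library and condition cannot be told apart, and the MEF and iMPC cells were selected in different ways. Eln and Mfap5 rest on at most 9 UMIs in any set of iMPC cells. No paired analysis was possible because each group has 1 library.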
